A study of Mus musculus with 6 samples.

Results

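Wild-type (WT) group 2 innate lymphoid cells (ILC2s) from the lungs of mice given recombinant mouse IL-33 (rmIL-33) were described gene by gene, from the 3 bulk RNA-Seq libraries labelled with the wild-type genotype among the 6 libraries of the series. The mice were BALB/c with no modified allele given for this group. They received 0.5 µg rmIL-33 intranasally on each of 3 days, and ILC2s were isolated from the lungs on day 4. The study's methods state that activated ILC2s (aILC2s) were sorted as live CD45+ cells that lacked the surface lineage markers of T cells, B cells, NK cells, myeloid cells, mast cells, basophils and erythroid cells and that carried ST2 and CD127. The labels call the cells freshly isolated in one place and cultured in another, and they give neither the age nor the sex of the mice. The study's methods give an age range in weeks for all mice and call them sex-matched, with males and females examined. The libraries without a wild-type label were not used for any value below.

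ILC2s are tissue-resident lymphocytes without a rearranged antigen receptor. They sense alarmins of the epithelium, above all IL-33 through its receptor ST2, and answer with IL-5 and IL-13, which recruit eosinophils and drive mucus production in the airway. GATA3 and RORα are the transcription factors without which the lineage does not form.

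By its label, each library was made from 10 pg of RNA with a SMARTer kit, which copies whole transcripts and does not mark the strand. Whether this amount of RNA is right was not tested. The totals were 15680892, 29197999 and 16840767 counts in replicates 1, 2 and 3. Levels are given as CPM, the counts of a gene scaled to the library's total, as the mean ± SD over the 3 libraries (n = 3 throughout) or for replicates 1, 2 and 3 in that order. CPM grows with the length of a transcript. Levels of different genes are therefore set side by side only as TPM, for which the counts are divided by the exonic length before they are scaled. A single library with no count of a gene still allows a level of up to 0.191, 0.103 and 0.178 CPM in replicates 1, 2 and 3, taking 3 counts as the limit. Reads copied by amplification do not count molecules, so such limits hold for counting error alone. Neither the labels nor the study's methods say whether the libraries came from separate mice, and replicates 1 and 2 share a number in their labels, so the spread between libraries may be technical.

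The libraries were close to each other. Over the 8589 genes whose mean reached 10 CPM, the Pearson correlation across genes of log2 CPM was 0.992 for replicates 1 and 2, 0.988 for 1 and 3, and 0.982 for 2 and 3. Each pair differed by more than sampling noise (chi-square per degree of freedom of 14.8, 17.3 and 40.8), so no library's counts were a copy of another's. Repeat preparations of the same sample can also exceed that noise, so this cannot tell them from separate samples. Genes with long transcripts were counted more often in replicate 3. Among 564 genes with at least 8 kb of exons, the median level in replicate 3 lay 0.25 above the mean of the other libraries on the log2 scale, and 85.1% of these genes were higher there. Among 410 genes with under 1 kb, the median lay 0.25 below (log2 difference -0.25) and 5.85% were higher. For genes called highest, lowest or otherwise different in replicate 3 below, whether their length sets the difference was not tested.

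The table listed 15212 genes, with a median level of 16.2 CPM. A gene was called on where it had at least 5 CPM in every library and off where it had under 0.5 CPM in every library. By these limits 9476 genes (62.3%) were on, 1077 were off and 46 had no count in any library (7.38% in all), and 4613 lay between. Of 12258 protein-coding genes, 9149 (74.6%) were on, against 130 of 1261 processed pseudogenes. Shares given below for lists are of their listed members, and a gene absent from the table was not counted as off. The shares on and off of all genes likewise describe the genes listed, and not every gene of the mouse. The lists hold mainly protein-coding genes, so their shares are to be read beside 74.6% as well as 62.3%. Counts were spread unevenly over genes. The 87 genes with at least 1000 CPM took 19.2% of the counts, and 2279 genes between 100 and 1000 CPM took 53.7%. The 3096 genes under 1 CPM took 0.144% in all. Genes that were on had a median of 45.0 CPM and a median coefficient of variation (CV) between libraries of 8.34%.

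**Figure D1:**
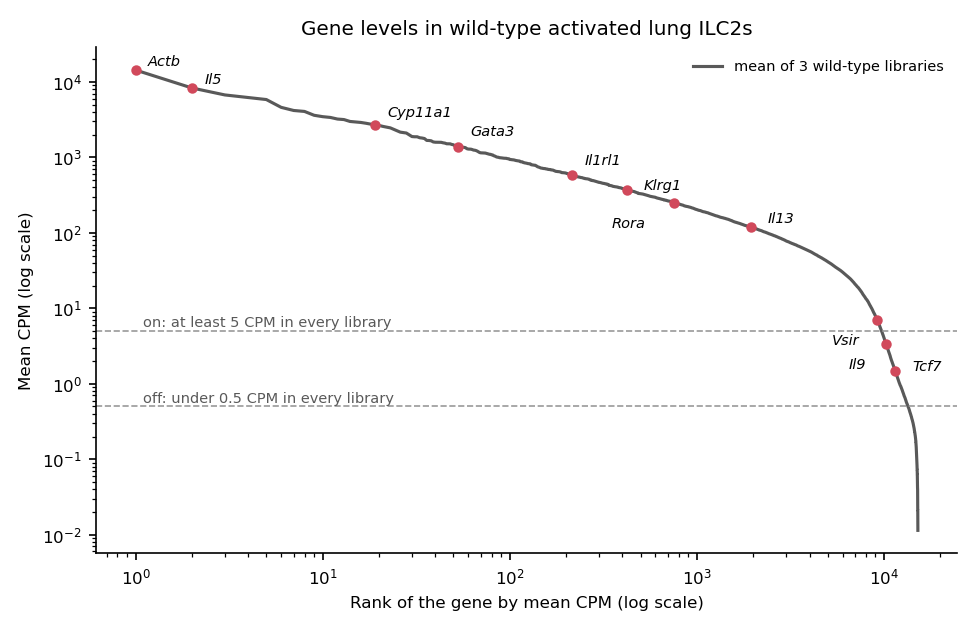
Mean level of each gene in WT aILC2s (y axis, CPM on a log scale, mean of 3 libraries) against its rank (x axis, log scale); dashed lines mark 5 and 0.5 CPM and red points mark named genes. Il5 stands at rank 2 of 15212 genes, while Vsir, Il9 and Tcf7 lie in the steep tail near the limit of 5 CPM.

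The genes that define ILC2s were on. Gata3, the lineage factor, stood at 1313, 1357 and 1503 CPM, a mean of 1391 ± 99.2. Il5, which encodes the eosinophil growth factor IL-5, stood at 8609, 8579.8 and 7761 CPM. Klrg1, an inhibitory lectin-like receptor of activated ILC2s, stood at 387, 370.0 and 358 CPM, and Rora at 263, 243 and 248 CPM. All of these were far above the limit in each library, with CVs between 3.85% and 7.14%. Il1rl1, the gene of ST2, stood at 562, 534 and 643 CPM, and Il7r, the gene of CD127, at 88.5, 83.2 and 100.2 CPM. Both of these proteins and CD45 (Ptprc, 719 ± 144 CPM) were used to sort the cells, so the presence of their transcripts is no finding. Of 30 genes on a list of ILC2 identity, 29 were listed, with a median of 127 CPM. Of these, 27 were on (93.1%, against 62.3% of all listed genes and 74.6% of protein-coding ones). The others were Tcf7, a factor of early lymphoid precursors, at 1.66, 1.37 and 1.43 CPM, and Zbtb16, the gene of PLZF that marks innate lymphoid precursors, at 0.191, 0.274 and 0.475 CPM. The 27 genes on include Il1rl1, Il7r and Ptprc, and the list was chosen with earlier results of these data known. Its share on is therefore a description and no test of identity.

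Markers of other cell types were mostly low, with T cell and dendritic cell genes as the main exceptions. Over 13 lists, 63 of 137 marker genes were listed. Of the 63, 14 were on (22.2%, against 62.3% of all listed genes and 74.6% of protein-coding ones). The sort had removed cells with surface lineage markers of many of these types, so this low share was set in part by design. The 63 genes summed to 551, 549 and 462 CPM, and 25 of them also stand on another of the lists. In bulk RNA, fewer cells of a type and less RNA per cell cannot be told apart. Of 9 listed T cell genes 5 were on, with sums of 219, 220.2 and 189 CPM. Trbc2, a constant segment of the T cell receptor β chain, stood at 106, 110.1 and 92.5 CPM and Cd3g, a CD3 subunit, at 42.2, 41 and 36.5 CPM. Trac, the constant segment of the α chain, was off at 0.128, 0 and 0.178 CPM, so the 2 receptor chains were not at like levels (346 ± 19.9 TPM for Trbc2 against 0.585 ± 0.533 TPM for Trac). Cd3e, whose protein was part of the lineage gate, was on at 8.71 ± 0.727 CPM. Of 8 listed dendritic cell genes 4 were on, with sums of 156, 157 and 142 CPM. These were Xcr1, a chemokine receptor, at 58.3 ± 5.03 CPM, Bst2, an interferon-induced membrane protein, at 40 ± 3.73 CPM, and H2-Ab1, an MHC class II gene, and Cd74, its invariant chain, at 34.4 ± 4.34 and 12.4 ± 2.76 CPM. Zbtb46, a factor of conventional dendritic cells, was off at 0.319 ± 0.0228 CPM, and H2-Aa, which pairs with H2-Ab1, lay between the limits at 2.06 ± 0.653 CPM. Of 5 listed B and plasma cell genes 1 was on, Cd79b at 14 ± 2.94 CPM, while its partner Cd79a stood at 0.319 ± 0.442 CPM. Whether other cells gave these transcripts was not tested.

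Among the remaining markers, NK cell and ILC1, ILC3, neutrophil, mast cell and basophil, fibroblast and muscle, and red cell and platelet lists had no listed member on. Not all their members were listed, with 2 of 10 for NK cell and ILC1 and 3 of 10 for neutrophil. Eomes, which defines NK cells, stood at 0.0327 ± 0.0319 CPM and the neutrophil gene S100a8 at 0.23 ± 0.16 CPM. The mast cell tryptase gene Tpsb2 had no count in 61719658, which allows up to 0.0486 CPM over the 3 libraries. The ILC3 gene Il22 stood at 6.7, 5.96 and 3.27 CPM; without replicate 3, Il22 alone passed the limit and 1 ILC3 marker was on. Epcam, an adhesion molecule of epithelia, was on at 19.8, 19.5 and 22.3 CPM, while the alveolar surfactant gene Sftpc (0.0737 ± 0.0483 CPM) and the keratin gene Krt8 (0.0228 ± 0.0395 CPM) were off. Pecam1 (39.5 ± 3.67 CPM), an endothelial marker that leukocytes also carry, was the single endothelial marker on of 3 listed.

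The sum of the macrophage and monocyte list differed between libraries, at 51.6, 53.9 and 15.7 CPM. Most of the difference lay in Chil3, a chitinase-like protein of alternatively activated macrophages, at 28.4, 32.1 and 0.297 CPM. It was present in replicates 1 and 2 and near the limit of detection in replicate 3. Mmp12, macrophage metalloelastase, moved the same way at 33.5, 30.8 and 6.23 CPM. Lyz2, a lysozyme gene (3.76, 4.21 and 0.0594 CPM), and Csf1r, the receptor of a macrophage growth factor (1.98, 1.37 and 0.534 CPM), lay below the limit in all libraries and were likewise lowest in replicate 3. The count of macrophage markers on was 1 with all libraries, Cd68 at 10.6 ± 0.868 CPM, and 2 without replicate 3. Whether other cells gave these transcripts was not tested.

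**Figure D2:**
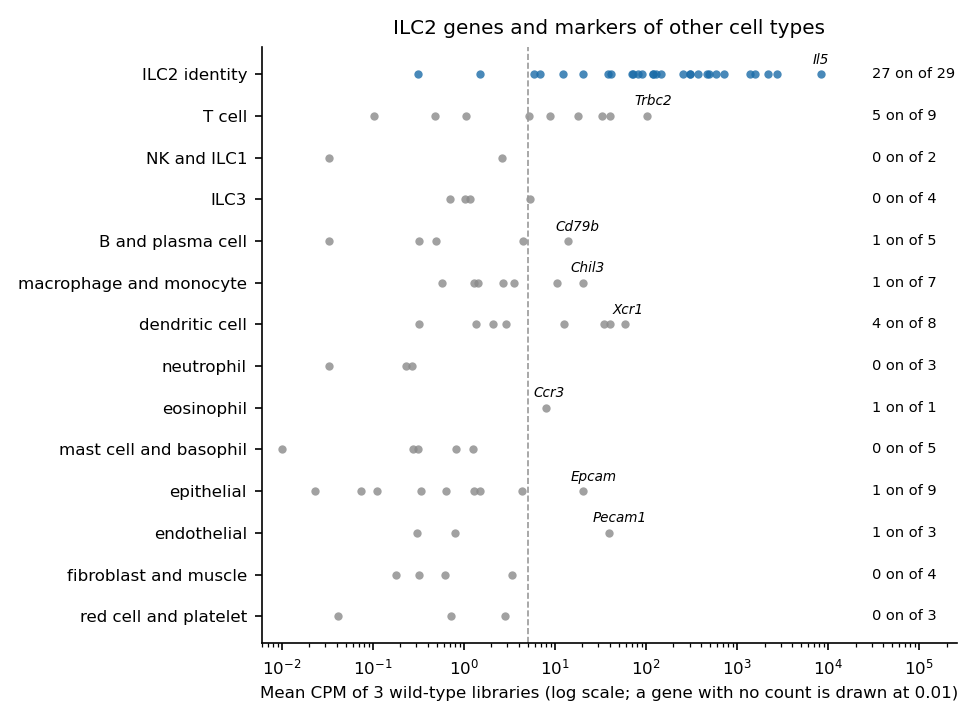
Mean CPM (x axis, log scale) of each listed gene of the ILC2 identity list (blue) and of 13 lists of markers of other cell types (grey); 1 point is 1 gene and the dashed line marks 5 CPM. Of the listed ILC2 genes 27 of 29 were on, up to 8317 CPM for Il5, against 14 of 63 markers of other types. The sort set part of this contrast, as it took cells with ST2, CD127 and CD45 and left out those with lineage markers.

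The most abundant transcripts belonged to the cytoskeleton, glycolysis, iron storage and IL-5 itself. Actb, β-actin, was first by CPM at 14678, 16618 and 11831 CPM and also first by TPM. Il5 was second on both scales, at 12601 ± 334 TPM. Its library range of 12228 to 12873 TPM lay above that of every gene but Actb, whose range lay wholly above it. Tmsb4x, which binds actin monomers, Ftl1, the ferritin light chain, and Actg1, γ-actin, followed with 10550.5 ± 812, 10048 ± 923 and 8032 ± 434 TPM. Of the 30 highest genes by CPM, 23 were among the 30 highest by TPM. Actb and Actg1, Tuba1b and other tubulins, and the MHC gene H2-D1 have close copies among which reads can be split, so their single values are uncertain. The same holds for Gm28437, a pseudogene with mitochondrial-like sequence, at 932 ± 112 CPM.

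Beside housekeeping genes, the 30 highest by CPM held several with roles in immune cells. Furin, the convertase that cuts pro-TGF-β and many other precursors, stood at 2665, 3226 and 3769.8 CPM. Il2ra, the α chain of the high-affinity IL-2 receptor, stood at 2426, 2528 and 3332 CPM. Cxcr6, a receptor that guides lymphocytes to lung and liver, stood at 2170.0, 2253 and 2053 CPM. Furin and Il2ra were highest in replicate 3, which counted long transcripts more often, and Cxcr6 was lowest there. Cyp11a1, the enzyme that cuts the side chain of cholesterol and opens the synthesis of steroids, stood at 2717, 2804 and 2495 CPM and was 19th by TPM as well as by CPM. Slc7a8, an importer of neutral amino acids, and Ero1l, an oxidase of the endoplasmic reticulum that forms disulfide bonds in secreted proteins, stood at 1994 ± 140.2 and 2835 ± 182 CPM. Coro1a and Lcp1, both actin regulators of leukocytes, stood at 2514 ± 205 and 2652 ± 272 CPM.

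Of 146 genes of ligands and of convertases that process them, on 8 lists, 82 were listed and 36 of them were on (43.9%, against 62.3% of all listed genes), with a median of 3.28 CPM. Among the effectors of type 2 immunity 6 of 11 listed genes were on (54.5%). In order of TPM these were Il5, Csf2, Areg, Il13, Il10 and Il4. Neighbours in that order had ranges that did not overlap between libraries, except Areg and Il13. Csf2, the gene of the growth factor GM-CSF, stood at 222, 241 and 191 CPM or 634 ± 53.4 TPM. Areg, the epidermal growth factor family member amphiregulin that acts in tissue repair, stood at 134, 128 and 119 CPM or 243 ± 7.94 TPM.

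Il13, the gene of the cytokine that drives mucus production and airway contraction, stood at 82.1, 189.8 and 83 CPM. Replicate 2 lay above the other libraries by more than 2-fold, so that the mean of 118 ± 62 CPM rests on that library. Without replicate 2 the mean was 82.5 CPM. On the per-length scale Il5 exceeded Il13 by 82.2-, 35.4- and 73.3-fold in replicates 1, 2 and 3, and exceeded Csf2 by 20.1-, 18.6- and 21.2-fold. These pairs were chosen after their values were seen. Il4 stood at 11.7, 10 and 8.61 CPM, and Il10, an anti-inflammatory cytokine, at 18.9, 16.1 and 19.8 CPM. Il9, a growth factor of mast cells and ILC2s, lay below the limit at 2.81, 2.64 and 4.57 CPM. Il6 and Il31 were low at 0.555 ± 0.259 and 0.35 ± 0.234 CPM, and Il2 and Il21 were off at 0.209 ± 0.146 and 0.102 ± 0.0918 CPM.

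Il5, Il13 and Il4 are neighbours. On GRCm38, Il5 lies on chromosome 11 from 53720794 to 53725106 on the plus strand, Il13 from 53631324 to 53634702 and Il4 from 53602982 to 53618669, both on the minus strand, with Rad50 between Il13 and Il5. Rad50, a DNA repair gene, stood at 112 ± 12.6 CPM, Kif3a, a kinesin beyond Il4, at 35.4 ± 1.83 CPM, and Irf1, an interferon-responsive factor beyond Il5, at 88.6 ± 1.23 CPM; these neighbours were chosen by position. Levels of 23.9 ± 3.09, 227 ± 114 and 12601 ± 334 TPM thus stood within the same locus. The antisense gene Gm12214 lies inside the span of Il5 and stood at 23.9 ± 3.07 CPM. The libraries carry no strand, so reads of both genes cannot be told apart.

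The 250 bases before the start site are shown for Il5, Csf2 and Il13, the effector genes of chromosome 11 that were highest by TPM, and for Gata3, the lineage factor; Il4 was lower and is not shown. They are RefSeq sequences of GRCm38.p6 in the 5′ to 3′ direction of each gene, and the capitals mark matches on either strand to the motifs searched. These were the TATA box TATAAA, the box named CCAAT, the Sp1 site GGGCGG, the longer GATA factor site AGATAA, the AP-1 site TGACTCA, the ETS factor site TTCCGG and, added after the data were seen, the core GATA, which every AGATAA also holds.
Il5 (chr11:53720544-53720793, plus strand): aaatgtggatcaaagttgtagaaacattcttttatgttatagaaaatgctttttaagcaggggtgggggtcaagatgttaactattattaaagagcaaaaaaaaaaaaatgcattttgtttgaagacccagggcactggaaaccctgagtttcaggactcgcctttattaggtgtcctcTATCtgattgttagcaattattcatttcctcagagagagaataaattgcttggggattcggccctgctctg
Il13 (chr11:53634703-53634952, minus strand): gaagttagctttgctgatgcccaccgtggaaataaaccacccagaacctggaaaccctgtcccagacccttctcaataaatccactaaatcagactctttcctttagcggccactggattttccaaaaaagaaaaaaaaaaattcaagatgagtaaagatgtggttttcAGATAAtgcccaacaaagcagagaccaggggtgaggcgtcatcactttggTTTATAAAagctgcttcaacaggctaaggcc
Csf2 (chr11:54249900-54250149, minus strand): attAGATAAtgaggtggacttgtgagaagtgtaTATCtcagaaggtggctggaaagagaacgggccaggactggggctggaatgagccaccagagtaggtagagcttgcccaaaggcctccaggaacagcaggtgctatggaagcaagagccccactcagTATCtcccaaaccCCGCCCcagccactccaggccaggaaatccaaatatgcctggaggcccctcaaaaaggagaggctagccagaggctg
Gata3 (chr2:9878601-9878850, minus strand): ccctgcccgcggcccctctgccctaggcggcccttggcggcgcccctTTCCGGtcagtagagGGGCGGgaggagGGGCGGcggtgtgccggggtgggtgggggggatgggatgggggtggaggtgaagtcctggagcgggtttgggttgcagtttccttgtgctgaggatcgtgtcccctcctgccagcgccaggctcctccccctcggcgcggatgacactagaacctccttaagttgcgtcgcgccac

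The window of Il5 held 1 match, a GATA read on the opposite strand 71 bases before the start, with 37.6% G and C. Il13 held AGATAA at 81 bases and overlapping TATAAA matches at 31 and 29 bases before the start. Csf2 held AGATAA at 247 bases, further GATA matches at 217 and 90 bases, and GGGCGG at 77 bases before the start. Gata3 had 70% G and C, 19 CpG pairs, TTCCGG and 2 GGGCGG matches. Of all 27025 promoters of this length, GATA was found in 54.1%, AGATAA in 10.2%, TATAAA in 13.0%, GGGCGG in 33.0% and TTCCGG in 12.3%. A match is a run of letters and was not tested as a binding site. A promoter sequence was at hand for 79.6% of listed protein-coding genes, under the 80% set as a minimum, so a comparison of promoters between genes on and off was void.

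Other secreted factors of WT aILC2s came from several families. Mif, a cytokine that holds macrophages in place, stood at 1233 ± 62.2 TPM, and Tgfb1 and Metrnl, a secreted protein related to meteorin, at 319 ± 32.5 and 280.2 ± 24.5 TPM. Osm, the gene of oncostatin M, stood at 127, 123 and 131 CPM and Lif, a relative of the same family, at 50.3, 43.7 and 68.3 CPM. Flt3l, a growth factor of dendritic cells, stood at 62.8, 61.8 and 60.6 CPM, and Il16 at 80.2, 77.5 and 81 CPM. Most of these differed little between libraries, whereas Lif was highest in replicate 3. Pcsk1, a prohormone convertase, stood at 418, 388 and 472 CPM, Bmp7 at 50.1, 49.9 and 52.6 CPM and Calca, the gene of calcitonin and of the neuropeptide CGRP, at 20, 18.8 and 14.1 CPM. Il24 and Ebi3, a subunit of IL-27 and IL-35, were on at 12.4 ± 1.35 and 8.26 ± 0.69 CPM.

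Of 17 ligands of the tumor necrosis factor superfamily, 10 were listed and 9 were on, all under 60 CPM. This was 52.9% of the 17 and 90% of the listed ligands, beside 62.3% of all listed genes and 74.6% of protein-coding ones. Ltb and Lta, which encode lymphotoxins, were the highest by TPM at 62.8 ± 8.38 and 55.1 ± 1.58 TPM, with overlapping ranges. Tnfsf4, the OX40 ligand, stood at 21.4, 20.7 and 21.5 CPM and Tnfsf11, the gene of RANKL, at 14.7, 13.4 and 13.8 CPM. Tnf itself stood at 9.25, 7.77 and 8.02 CPM. Of 10 IL-1 family ligands 3 were listed and none of them was on, with Il33 at 0.427 ± 0.196 CPM and Il1b off at 0.0228 ± 0.0395 CPM. Of 17 ligands of the IL-10, IL-12 and IL-17 families 5 were listed, and Il17f stood at 0.706 ± 0.425 CPM.

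Listed chemokine genes were mostly low or off. Of 34 chemokine genes 19 were listed and 1 was on (5.26%, against 62.3% of all listed genes and 74.6% of protein-coding ones). That was Cxcl3, which draws neutrophils, at 10.6, 11.4 and 9.14 CPM. Per length Ccl5 and Cxcl3 stood at 24.3 ± 3.88 and 23.8 ± 1.88 TPM, with overlapping ranges. Ccl5 and Ccl25 stood at the limit with 4.78, 5.58 and 6.23 CPM and 5.8, 4.56 and 6.41 CPM, so that 2 chemokines were on without replicate 1 and 2 without replicate 2. Cxcl10 (0.0396 ± 0.0686 CPM), Ccl17 (0.0539 ± 0.066 CPM), which draws Th2 cells, and Ccl3 (0.146 ± 0.0872 CPM) were off, and Cxcl1 had no count in any library. Ccl6 and Ccl9 stood at 2.61, 2.81 and 0.594 CPM and at 2.17, 2.19 and 0.594 CPM, both lowest in replicate 3.

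**Figure D3:**
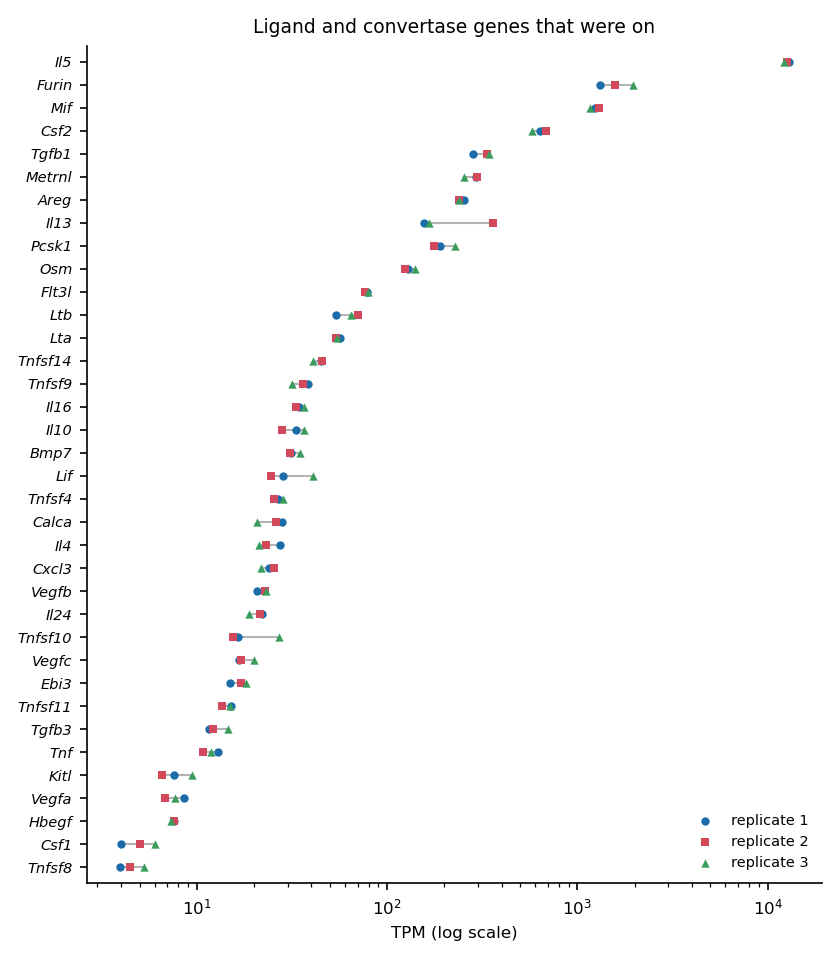
TPM (x axis, log scale) of the 36 ligand and convertase genes that were on, 1 row per gene, with replicates 1, 2 and 3 as circles, squares and triangles joined by a line over their range. Il5 stands alone near 12601 TPM, and the square of Il13 lies to the right of its other points.

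Receptors for IL-33 and its relatives stood at unequal levels, some on and some not. Of 12 listed receptors of the IL-1 and IL-17 families 8 were on. This share was 66.7%, against 62.3% of all listed genes and 74.6% of protein-coding ones. Il1r2, a decoy receptor that binds IL-1 without signalling, stood at 688, 737 and 645 CPM. Per length it was 5.89-, 6.66- and 4.83-fold above Il1rl1, a pair chosen after the values were seen. Il1rap, the chain that ST2 and the IL-1 receptor share for signalling, stood at 14.7, 13.3 and 18 CPM, and per length Il1rl1 exceeded it by 44.9- to 50.7-fold. Il1r1, the signalling IL-1 receptor, was low at 1.02 ± 0.479 CPM, and Il1rl2 lay at the limit with 4.78, 5.48 and 7.18 CPM. Sigirr, an inhibitory member of the family, stood at 155, 156 and 143 CPM. For IL-18, the accessory chain gene Il18rap stood at 96.9, 90.6 and 112 CPM and the binding chain gene Il18r1 at 5.8, 7.47 and 7.01 CPM. Il17rb, which binds IL-25, stood at 40.4, 40.4 and 42 CPM.

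Of 14 listed receptors of the common γ chain and type 2 cytokines, 11 were on (78.6%). That share was above the 62.3% of all listed genes and near the 74.6% of protein-coding ones. Il2rg, the common γ chain, stood at 716, 717 and 731 CPM, and Il2rb, the β chain for IL-2 and IL-15, at 616, 671 and 680.0 CPM. With Il2ra, all 3 chains of the high-affinity IL-2 receptor were on, although Il2 was off. Per length Il2ra exceeded Il7r by 18.6- to 22.6-fold. Il4ra, the receptor chain for IL-4 and IL-13, stood at 218, 229 and 232 CPM, while Il13ra1, its partner in the IL-13 receptor, was off at 0.0638, 0.171 and 0 CPM. Il9r was on at 106, 104 and 101 CPM, Il15ra, which binds IL-15, stood at 11.1 ± 0.645 CPM and Il21r at 1.71 ± 0.467 CPM. Crlf2, which with Il7r forms the receptor of the alarmin TSLP, stood at 23.7, 29.2 and 25.3 CPM. Csf2rb, the shared β chain for GM-CSF, IL-3 and IL-5, stood at 133, 144 and 119.7 CPM and Csf2ra, the chain that binds GM-CSF, at 4.46, 5.14 and 3.62 CPM.

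Among other cytokine receptors 17 of 29 listed were on (58.6%, against 62.3% of all listed genes). Tgfbr2, which binds TGF-β, stood at 339, 299 and 403 CPM. Il12rb1 and Il27ra, chains of the IL-12 and IL-27 receptors, stood at 266 ± 0.564 and 265 ± 7.86 TPM, with overlapping ranges. Of the interferon receptors, Ifngr1 stood at 77.8 ± 9.43 CPM and Ifnar1 at 71.8 ± 2.94 CPM. Il10ra and Il10rb, which together bind IL-10, stood at 84.4 ± 6.53 and 75.3 ± 4.49 TPM. Kit, the stem cell factor receptor, stood at 62.8, 60.6 and 84.6 CPM. Lifr, the receptor of the Lif product, had no count in any library, and Il6st, the signalling chain of the IL-6 family, stood at 10.9, 11.5 and 19.4 CPM. Egfr, a receptor of amphiregulin, was low at 1.21, 0.445 and 0.653 CPM, and Erbb3 of the same family stood at 17.8 ± 4.38 CPM.

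Of 22 listed receptors of the tumor necrosis factor superfamily 12 were on (54.5%, against 62.3% of all listed genes). Tnfrsf18, the gene of GITR, stood at 295, 309 and 233 CPM, and Tnfrsf8, the gene of CD30, at 455, 524 and 543 CPM. Tnfrsf1b, the second TNF receptor, stood at 353, 314 and 348 CPM and Tnfrsf1a, the first, at 3.7, 2.71 and 2.79 CPM. On the per-length scale these were 207 ± 17.4 and 3.31 ± 0.565 TPM. Tnfrsf25, the gene of DR3 that binds TL1A, stood at 81 ± 6.99 CPM, Tnfrsf9, the gene of 4-1BB, at 87.3 ± 3.81 CPM, and Cd40 was off at 0.107 ± 0.0381 CPM.

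Receptors for chemokines and other guidance cues were on for 22 of 31 listed genes. This share was 71.0%, against 62.3% of all listed genes and 74.6% of protein-coding ones. After Cxcr6, Ccr2 was second by TPM at 321 ± 68.2 TPM, with 870.2, 798 and 1111 CPM in the libraries, highest in replicate 3. Ccr8, a receptor found on Th2 cells and ILC2s, stood at 117, 126 and 111 CPM. Ccr4, Ccr1 and Ccr7 were on at 49.9 ± 8.13, 66.2 ± 4.43 and 57.2 ± 2.03 CPM, and Xcr1, better known on dendritic cells, at 64.1, 56.2 and 54.7 CPM. S1pr1, which guides the exit of lymphocytes from tissue, stood at 25.9 ± 4.25 CPM. Cxcr4 was low at 1.21, 1.61 and 1.6 CPM and Cxcr5 off at 0.102 ± 0.122 CPM. Ccr3, the eotaxin receptor, was on at 8.61, 7.71 and 7.36 CPM; it is also the 1 eosinophil marker listed.

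Receptors for lipid mediators and neuropeptides were on for 18 of 29 listed genes (62.1%). That share was near the 62.3% of all listed genes and below the 74.6% of protein-coding ones. Ltb4r1, the high-affinity receptor of leukotriene B4, stood at 612, 621 and 551 CPM, while Ltb4r2 was low at 1.57 ± 0.54 CPM. Cysltr1, a receptor of cysteinyl leukotrienes, stood at 349, 294 and 348 CPM and Ptgir, the prostacyclin receptor, at 222, 225 and 211 CPM. Nmur1, the receptor of neuromedin U from neurons, stood at 306, 319 and 296 CPM with a CV under 5%. Ramp1 and Calcrl, which together form the CGRP receptor, stood at 346, 399 and 273 CPM and 93.2, 69.5 and 135 CPM. In replicate 3 Ramp1 was lowest and Calcrl highest, and whether the length of these genes sets this was not tested. Vipr2, a receptor of vasoactive intestinal peptide, stood at 10.4, 10.4 and 9.98 CPM and Htr1b, a serotonin receptor, at 50.7, 50.1 and 59.5 CPM.

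Checkpoint and costimulatory receptors were on for 14 of 35 listed genes (40%, against 62.3% of all listed genes), and 27 passed a limit of 1 CPM. Icos, a costimulator, stood at 479, 423 and 499.9 CPM and Pdcd1, the gene of PD-1, at 220.1, 224 and 189 CPM. Lilrb4a and Cd200r1, both inhibitory, stood at 293, 259.8 and 391 CPM and 214, 215 and 209 CPM. Vsir, the gene of VISTA, was just above the limit at 6.95, 6.34 and 7.48 CPM. On the per-length scale Vsir stood at 3.28 ± 0.376 TPM against 254 ± 14.9 TPM for Pdcd1. Havcr2, the gene of TIM-3, and Cd274, the gene of PD-L1, were on at 11 ± 2.62 and 10.1 ± 2.31 CPM. Ctla4 (2.39 ± 0.721 CPM), Tigit (3.12 ± 0.478 CPM) and Cd28 (2.79 ± 0.93 CPM) lay between the limits, and Cd86 (0.139 ± 0.212 CPM) and Btla (0.341 ± 0.0791 CPM) were off.

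Adhesion molecules and innate sensors completed the surface and sensing repertoire. Among 32 listed integrin and adhesion genes 20 were on (62.5%, against 62.3% of all listed genes and 74.6% of protein-coding ones). Selplg, the selectin ligand PSGL-1, and Emb, embigin, stood at 1128 ± 40.9 and 983 ± 53.4 TPM, and Itgb7 and Itgb2, integrin chains of lymphocytes, at 687 ± 20.1 and 511 ± 11.8 TPM. Itgb3 stood at 637, 668 and 569 CPM and Itgav, its partner chain, at 63.7, 49.4 and 85.9 CPM. Itgam and Itgax, whose proteins CD11b and CD11c were in the lineage gate, were low at 1.41 ± 0.605 and 1.36 ± 0.358 CPM. Of 19 listed sensors 13 were on (68.4%, against 62.3% of all listed genes and 74.6% of protein-coding ones). Sting1, which senses cyclic dinucleotides, stood at 175, 174 and 167 CPM. Tlr1 and Tlr2, which pair at the surface to sense lipopeptides, stood at 41.1 ± 3.04 and 14.4 ± 1.64 CPM. Tlr4 lay at the limit with 4.78, 4.45 and 6.95 CPM.

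**Figure D4:**
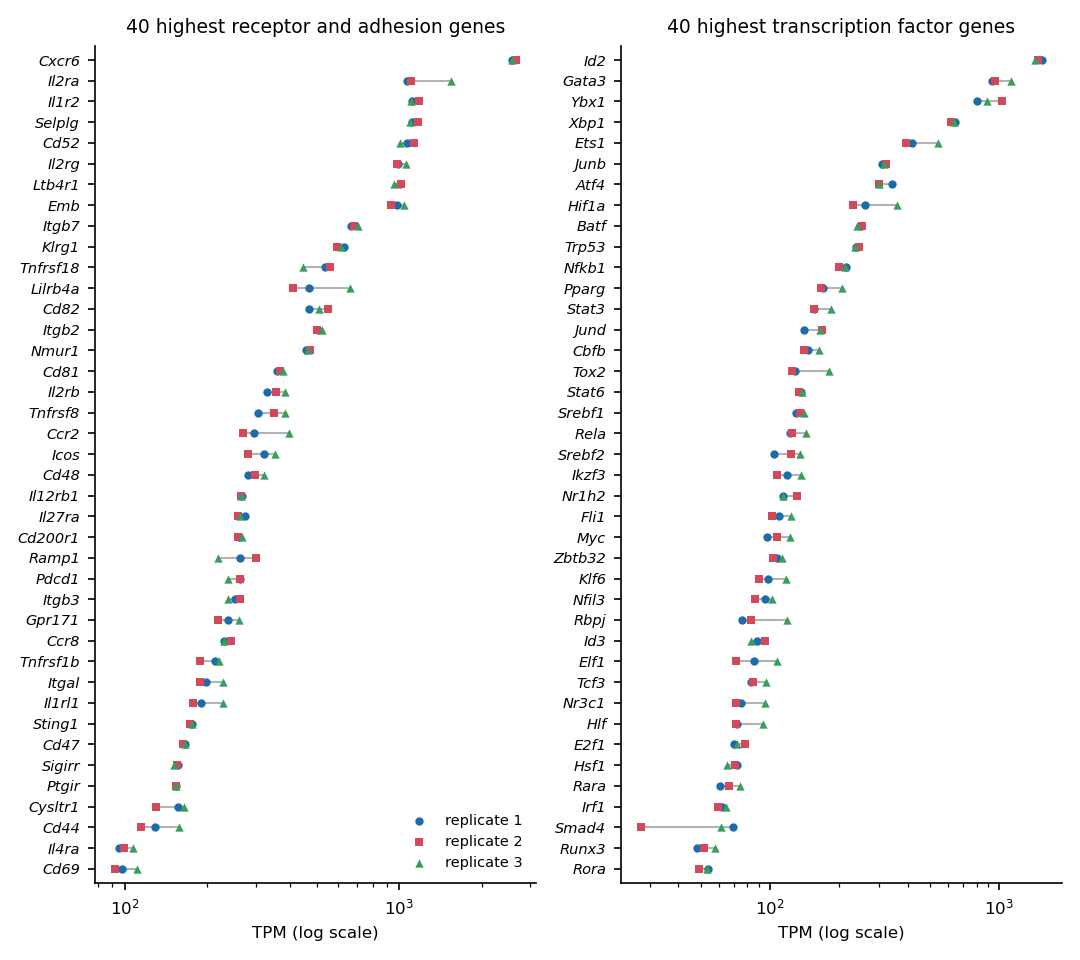
TPM (x axes, log scale) of the 40 highest receptor and adhesion genes (left) and the 40 highest transcription factor genes (right) among the lists, with replicates 1, 2 and 3 as circles, squares and triangles joined by a line over their range. Cxcr6 at 2604 TPM leads the left panel and Id2 and Gata3 at 1490 and 1010 TPM lead the right one.

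Of 156 listed factors on 3 lists, 123 were on, with a median of 40.2 CPM. Their share on of 78.8% stood beside 62.3% of all listed genes and 74.6% of protein-coding ones. Id2, which blocks E proteins and is needed by all innate lymphoid cells, stood at 1636, 1595 and 1448 CPM, the highest factor by TPM at 1489.7 ± 51.8 TPM. Gata3 was second at 1010.2 ± 106 TPM, and per length exceeded Rora by 17.4-, 19.5- and 21.2-fold. Ets1, another factor of ILC development, stood at 921, 878 and 1136 CPM, highest in replicate 3. Bcl11b, which keeps ILC2 identity, stood at 133, 160.1 and 145 CPM, and Gfi1, a repressor needed in ILC2s, at 38.5, 37.9 and 38 CPM. Nfil3, Tox and Tox2, which act in ILC development, stood at 82.2 ± 4.44, 39.4 ± 7.38 and 198 ± 36 CPM.

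Several factors best known from other lineages were also listed, some low and some on. Foxp3, which defines regulatory T cells, stood at 0.957, 0.925 and 1.31 CPM. Gata1 and Spi1, factors of mast cells and myeloid cells, stood at 0.363 ± 0.267 and 0.503 ± 0.0835 CPM, and Batf3, a factor of dendritic cells, was off at 0.0866 ± 0.0969 CPM. Bcl6, a repressor of follicular helper T cells, stood at 0.887 ± 0.284 CPM, whereas Prdm1, which encodes its antagonist Blimp-1, was on at 91 ± 21.3 CPM. Runx3 and Irf8 were on at 94.1 ± 5.69 and 38.3 ± 2.57 CPM. Lef1, a relative of Tcf7, was on at 11.4, 12.8 and 13.1 CPM.

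Factors that answer signals were on for 45 of 49 listed genes (91.8%, against 62.3% of all listed genes and 74.6% of protein-coding ones). Xbp1, which drives the secretory pathway, stood at 672, 647 and 631 CPM. Junb and, from the list of lineage factors, Batf, which form AP-1 dimers, stood at 315 ± 5.14 and 248 ± 6.15 TPM. Stat3, Stat6 and Stat5b stood at 166 ± 17, 137 ± 2.53 and 50.9 ± 2.75 TPM. Nfkb1 exceeded Rela by 1.76-, 1.61- and 1.49-fold per length, and Rel was low at 3.76, 3.19 and 6.59 CPM. Hif1a, the oxygen-regulated factor and likewise of the lineage list, stood at 619, 554 and 806 CPM, highest in replicate 3. Foxo1 stood at 63.4, 64.2 and 70 CPM and Foxo3 at 6.89, 7.43 and 5.28 CPM. Of 24 listed nuclear receptors 17 were on (70.8%, against 62.3% of all listed genes and 74.6% of protein-coding ones). Per length they were led by Pparg, a lipid-sensing factor of ILC2s, at 182 ± 21.3 TPM, with 177, 176 and 203 CPM in the libraries. Nr1h2, the gene of the oxysterol receptor LXRβ, and Nr3c1, the glucocorticoid receptor gene, followed at 120.3 ± 9.83 and 80.6 ± 12.7 TPM.

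Enzyme genes were on for 203 of 261 listed members (77.8%, against 62.3% of all listed genes and 74.6% of protein-coding ones), with a median of 65.7 CPM. Genes of glycolysis summed to 26790, 28136 and 25382 CPM over 29 listed members, 23 of them on (79.3%). In several steps 1 gene carried most of the level. Ldha, the lactate dehydrogenase chain that favours lactate, stood at 5822, 6207 and 5489 CPM, and per length exceeded Ldhb by 163-, 166- and 139-fold. Aldoa exceeded Aldoc by 351- to 518-fold, Eno1 exceeded Eno2 by 501- to 761-fold and Hk1 exceeded Hk2 by 7.31- to 8.09-fold, also per length. In another step the levels were nearer, with Pfkp above Pfkl by 1.11- to 1.38-fold. Slc2a1, the glucose transporter GLUT1, stood at 209, 200.1 and 206 CPM, and Slc16a3, which exports lactate, at 364, 433 and 351 CPM.

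All 27 listed genes of the tricarboxylic acid cycle were on, against 62.3% of all listed genes and 74.6% of protein-coding ones. Their levels, not set per length, ran from 22 ± 1.69 CPM (Pcx) to 617 ± 40.3 CPM (Mdh2). They summed to 5982, 6083 and 6003 CPM. Of 36 listed genes of fatty acid uptake and oxidation 29 were on (80.6%). Plin2, which coats lipid droplets, stood at 650.3, 688 and 619 CPM and Fabp5, a fatty acid carrier, at 139.7, 135 and 131 CPM. Fasn, fatty acid synthase, stood at 546, 552 and 697 CPM. Cpt1a, which admits fatty acids to mitochondria, stood at 184, 161 and 207 CPM while its muscle form Cpt1b was off at 0.212 ± 0.223 CPM. Cd36, a fatty acid transporter, differed between libraries at 8.42, 5.45 and 1.31 CPM and was lowest in the library that was lowest for Chil3.

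Arg1, arginase 1, stood at 517, 519.9 and 442 CPM, while Arg2 was off at 0.128, 0.103 and 0 CPM. The amino acid and polyamine list had 27 of 34 listed genes on (79.4%, against 62.3% of all listed genes and 74.6% of protein-coding ones). Phgdh, Psat1 and Shmt2, enzymes that make serine and glycine, stood at 453 ± 8.49, 315 ± 9.41 and 412 ± 6.2 TPM. Odc1 and Srm, which make polyamines, stood at 226 ± 20.8 and 235 ± 13.2 TPM. Tph1, the first enzyme of serotonin synthesis, was on at 53.1, 57.7 and 53 CPM, and Ddc, the enzyme of the next step, was low at 2.54 ± 0.477 CPM. Nos2 and Ido1 were off at 0.0342 ± 0.0593 and 0.0623 ± 0.0638 CPM.

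Enzymes of lipid mediators were uneven. Of 21 listed 11 were on (52.4%, against 62.3% of all listed genes), and the leading gene was Cyp11a1 at 2935 ± 80.4 TPM. Alox5, 5-lipoxygenase, stood at 85.6, 90 and 91 CPM, while Alox5ap, which presents arachidonic acid to it, was low at 1.08, 1.47 and 0.594 CPM. Lta4h, which makes leukotriene B4, stood at 127, 133 and 126 CPM. Hpgds, which makes prostaglandin D2, was on at 14.1, 12.1 and 10.9 CPM; of the cyclooxygenases upstream of it, Ptgs1 was low at 3.95, 3.32 and 2.14 CPM and Ptgs2 off at 0.0638, 0.0685 and 0.297 CPM. Hpgd, which degrades prostaglandins, had no count in any library.

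Proteases and granule genes gave 20 of 39 listed members on (51.3%, against 62.3% of all listed genes). Ctsd, cathepsin D, stood at 1168, 1148 and 1129 CPM and Srgn, the granule proteoglycan serglycin, at 884, 810.5 and 785 CPM. Adam8, a membrane protease, stood at 797, 784 and 818 CPM and Stab2, a scavenger receptor of hyaluronan, at 664, 669.9 and 714 CPM. Gzmb and Gzma, granzymes, stood at 205 ± 20.2 and 212 ± 9.0 TPM, with overlapping ranges. Prf1, the pore-forming perforin, was low at 2.36, 2.12 and 3.33 CPM, so that per length Gzmb exceeded it by 102-, 117- and 58.3-fold.

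Kinases and adaptors of receptor signalling were on for 55 of 62 listed genes. This share was 88.7%, against 62.3% of all listed genes and 74.6% of protein-coding ones. Jak1 and Jak3, the kinases of the common γ chain receptors, stood at 675, 666 and 764 CPM and 504, 529 and 514 CPM. Pik3cd, the leukocyte phosphoinositide kinase, stood at 452, 419.6 and 473 CPM. Akt1, a kinase downstream of it, stood at 597, 332 and 549 CPM, lowest in replicate 2. Lck, a kinase of the T cell receptor, stood at 13.1, 13.5 and 13.2 CPM. The T cell receptor adaptors Lat and Lcp2 and the kinase Zap70 were on at 88.7 ± 17.6, 462 ± 22.3 and 152 ± 18.2 CPM. Myd88, the adaptor of ST2, stood at 135, 130.3 and 125 CPM, and Syk and Btk, kinases of other immune receptors, were low at 5.01 ± 0.694 and 1.39 ± 0.601 CPM.

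Genes of the cell cycle were on for 37 of 39 listed (94.9%, against 62.3% of all listed genes and 74.6% of protein-coding ones). Their median was 291 CPM, with sums of 12922, 12946 and 12791 CPM. Rrm2, a subunit of ribonucleotide reductase that supplies DNA synthesis, stood at 1336, 1333 and 1425 CPM. Mki67, the gene of Ki-67, stood at 395, 361 and 432 CPM and Top2a, a topoisomerase of dividing cells, at 579, 525 and 681 CPM. Ccnb1, the mitotic cyclin B1, stood at 461, 448 and 448 CPM. The 2 genes below the limit were inhibitors of the cycle, Cdkn1b at 3.06, 2.57 and 3.56 CPM and Cdkn2a at 0.49 ± 0.28 CPM. The inhibitors Cdkn1a, Cdkn2c and Cdkn2d were on at 291 ± 73, 60.1 ± 4.94 and 162 ± 9.67 CPM.

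Channels and calcium entry genes were on for 19 of 27 listed (70.4%, against 62.3% of all listed genes and 74.6% of protein-coding ones). Kcnn4 and Kcna3, potassium channels of lymphocytes, stood at 149 ± 8.94 and 95.8 ± 6.04 TPM. Orai1 and Stim1, the pore and the sensor of store-operated calcium entry, stood at 57.7, 61.8 and 56.2 CPM and 97.3, 98.8 and 116 CPM. Piezo1, a mechanosensitive channel, stood at 229, 208 and 284 CPM, and Trpv2 at 302, 313 and 319 CPM. Trpa1, an irritant sensor of neurons, was off at 0.203 ± 0.0324 CPM.

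The spread between WT libraries was small for most genes and large for a few. The common biological coefficient of variation from edgeR was 11%, and 95% of genes on had a CV of at most 22.2%. A CV above 30% was found for 134 of the 9476 genes on. Lars2, the mitochondrial leucyl-tRNA synthetase, had the largest CV among genes with at least 10 CPM, with 441, 2511 and 526 CPM. It was high in replicate 2 and like in the others. Egln1, an oxygen sensor that marks HIF-1α for decay, stood at 84.5, 19.6 and 19.1 CPM and Cul3, a scaffold of ubiquitin ligases, at 122, 30.9 and 42.9 CPM, both high in replicate 1. Of the 20 genes with the largest CV, 13 were highest in replicate 1, 6 in replicate 2 and 1, Anp32a, in replicate 3.

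The remaining genes highest in replicate 1 included Mbd2, a reader of methylated DNA, at 145, 34.7 and 99.3 CPM, Brd1, a chromatin reader, at 65.9, 23.7 and 19.1 CPM, and Qk, an RNA-binding protein, at 55.4, 13.6 and 17.8 CPM. Zfpm1, the GATA cofactor FOG-1, stood at 20.1, 4.83 and 6.59 CPM. Those high in replicate 2 included Il13, Max, the partner of MYC, at 18, 44.8 and 13 CPM, and Tmed9, a cargo receptor of the secretory pathway, at 262, 384 and 125 CPM. Chil3, Mmp12, Tmed9 and Eml2, a microtubule-associated protein (37.2, 57.3 and 12.6 CPM), were lower in replicate 3 than in either other library by more than 2-fold. Gata3, Il1rl1, Il5, Rora and Klrg1 were not among these genes, with CVs of 7.14%, 9.76%, 5.79%, 4.21% and 3.85%.

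**Figure D5:**
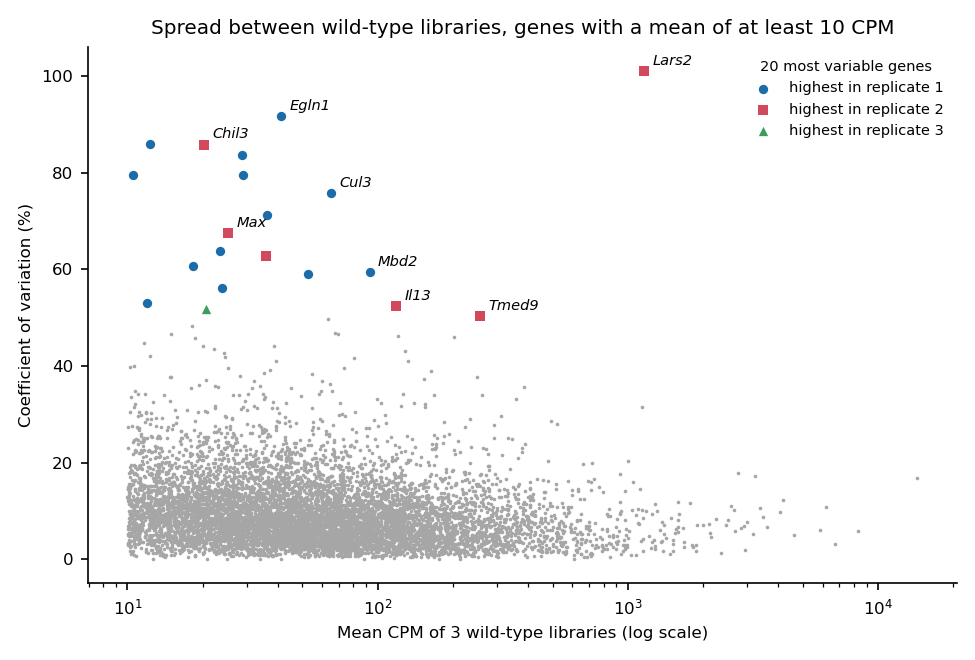
CV between the 3 WT libraries (y axis, percent) against mean level (x axis, CPM on a log scale) for genes whose mean reached 10 CPM; the 20 genes with the largest CV are coloured by the library in which they were highest. Lars2 at 101% and Egln1 at 91.7% lie far above the bulk of genes, and most coloured points are circles for replicate 1.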

How the data were processed

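The values the authors deposited are expected counts of each gene. The submitters' processing notes name STAR 2.7.8, Partek 10.0, DESeq2 and mm10; which annotation and counting settings were used is not given in the sources used here. Between 60.8% and 67.8% of a WT library's values lay within 0.01 of a whole number, and totals differed, so the values were not scaled. The table holds 6 library columns, of which the 3 WT columns were used. Expected counts were rounded to whole numbers and divided by the library total (CPM).

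For TPM, counts were divided by the union of exons of GENCODE M21 basic transcripts, found for 15066 of 15212 genes (14846 by symbol and 220 by an older symbol). Promoter sequences came from RefSeq. Genes with at least 5 CPM in every library were called on, and those under 0.5 CPM in every library off. The genes named are members of the lists, the 30 highest by CPM and by TPM, and the 20 with the largest CV among those whose mean reached 10 CPM. Neighbours of Il5 were added by position. The members, the lists and the pairs of genes compared per length were chosen with earlier results of these data known. No test between groups was made.

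The spread was estimated with edgeR 4.0.16 (R 4.3.3) on genes whose mean reached 10 CPM, with TMM scaling, and checked on simulated counts. Alternatives were other limits, TMM and DESeq2 1.42.0 size factors, thinning to the lowest total, a total without the 50 most abundant genes, each library left out, replicates 1 and 2 summed, and TPM, also by the longest transcript, which was added after seeing the data. Intervals and limits cover counting error only.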

Additional observations from a re-analysis of the deposited data

How the results depend on the processing

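The count of genes on stayed within 1.5 times of 9476 under every alternative run, from 8350 with limits of 10 and 1 CPM to 11654 with limits of 1 and 0.1 CPM. The count of genes off or at 0, 1123, depended on the limit: it was 118 with limits of 1 and 0.1 CPM, 2549 with limits of 10 and 1 CPM, and 1779 when the limit was set on the mean of the libraries. Leaving out each library in turn gave 9545 to 9565 genes on, 1276 to 1407 off, 29 to 30 shared genes among the 30 highest by CPM, and a common biological coefficient of variation of 8.38% to 13.5%. That value was 13.5% without replicate 1 and 8.38% without replicate 3. TMM scaling changed no list's count of members on, and a limit of 1 or 10 CPM changed 38 and 27 of 45 lists. A total without the 50 most abundant genes moved 16 of 20 levels examined by more than their SD, since it divides by a smaller total. No paired analysis was possible because only 1 group was described. Depth limits calls of genes off: 3 counts stand for 0.191 CPM in the shallowest library. Of 1157 genes on the lists, 321 were not listed and are not analysed here.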

Other observations

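Across genes whose mean reached 10 CPM, the length of a transcript and the library moved together, not only at the ends of the range. Among 1648 genes with 1 to 2 kb of exons the median level in replicate 3 lay at -0.16 on the log2 scale relative to the mean of replicates 1 and 2, and 15.3% of genes were higher there. Among 3315 genes of 2 to 4 kb the median lay at 0.00 with 51.1% higher, and among 2639 genes of 4 to 8 kb it lay at 0.16 with 77.7% higher. Replicate 2 showed the opposite order, with medians of 0.15 for genes under 1 kb and -0.20 for those of at least 8 kb, each relative to the mean of the other libraries. Replicate 1 lay between, at 0.11 and -0.05. This is a description across genes, which are not independent replicates.

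Ribosomal protein genes took 2.05%, 2.06% and 1.75% of the counts in replicates 1, 2 and 3, and mitochondrially encoded genes 0.585%, 0.520% and 0.452%. Both shares were lowest in replicate 3. The mitochondrial share leaves out Gm28437, the pseudogene with mitochondrial-like sequence, at 932 ± 112 CPM, so reads split between such copies are not all in it.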
